A study of Mus musculus with 6 samples.

Results

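To examine the hypoxia-inducible factor (HIF) pathway in bone-forming marrow cells exposed to nickel, 10 genes were followed out of the 54532 in the deposited count table: the HIF subunits Hif1a and Epas1, the prolyl hydroxylases Egln1 and Egln3, and the HIF target genes Vegfa, Adm, Bnip3, Pdk1, Ankrd37 and Ndufa4l2. They were matched by gene name, all 10 were found, and all 10 passed the filter on low counts. Of these, 9 were listed because they belong to this pathway, with earlier results of these data known. Ndufa4l2 was also selected on the rise of its counts in the nickel-treated libraries. Its difference between the groups is therefore given as a description, without a test. The cells were wild type mouse bone marrow mesenchymal stromal cells (BMSCs), the adherent marrow cells that can form osteoblasts. All 6 cultures spent 7 days in osteogenic medium, for which the labels give β-glycerophosphate at 10 mM, ascorbic acid at 50 µg/mL and dexamethasone at 100 nM, whereas the study's methods give a lower dexamethasone concentration. In the Ni group (3 cultures) the medium also held 0.1 µM nickel ions, and in the control group (3 cultures) it held no added nickel. The replicates are described as independent, but the labels do not say whether they came from different animals, and the age and sex of the animals are not given in the sources used here.

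HIF is a dimer of an oxygen-regulated α subunit, HIF-1α (Hif1a) or HIF-2α (Epas1), and a stable β subunit (Arnt). In oxygenated cells the prolyl hydroxylases of the EGLN family, which need iron, oxygen and 2-oxoglutarate, hydroxylate the α subunit, and the VHL ubiquitin ligase then marks it for destruction. When hydroxylation fails, the α subunit accumulates and the dimer binds the core sequence ACGTG or GCGTG near its target genes. Nickel ions at high concentration are a known chemical mimic of hypoxia, because they interfere with these iron enzymes. In bone, HIF in osteoblast lineage cells couples bone formation to vessel growth through VEGF-A. This control acts mostly on protein stability, and only RNA was measured here.

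The HIF-binding core was searched in the 250 bases upstream of each transcription start in RefSeq's GRCm38.p6 promoter table, the build of the deposited annotation. An entry was found for 8 of the 10 genes, with 10 promoters in all; Epas1 and Ndufa4l2 had none. ACGTG or GCGTG, on either strand and counting overlapping matches separately, stood in 8 of these 10 promoters (80.0%), against 54.2% of the 13456 promoters of genes that were tested and 38.6% of all 32851. ACGTG alone stood in 6 of the 10 (60.0%), against 2825 of the 13456 promoters of tested genes. The members' promoters had a median GC content of 61.8%, close to the 59.6% of tested genes. The 4 windows printed here were picked because their genes show both directions of difference described in the results: Bnip3, Pdk1 and Egln3 were higher in the Ni libraries and Adm was lower. The capitals mark the core, and CACGT and CACGC are the same cores read on the other strand.
Bnip3, chr7:138909532-138909628, minus strand: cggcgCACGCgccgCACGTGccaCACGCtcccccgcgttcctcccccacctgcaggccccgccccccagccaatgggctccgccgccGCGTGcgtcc
Pdk1, chr2:71873103-71873192, plus strand: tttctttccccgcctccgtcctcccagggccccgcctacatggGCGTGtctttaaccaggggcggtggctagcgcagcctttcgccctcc
Egln3, chr12:54204035-54204124, minus strand: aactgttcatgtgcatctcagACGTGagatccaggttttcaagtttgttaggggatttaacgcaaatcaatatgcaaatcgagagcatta
Adm, chr7:110627542-110627631, plus strand: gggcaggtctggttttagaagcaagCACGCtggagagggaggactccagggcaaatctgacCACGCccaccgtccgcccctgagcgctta
Bnip3 held the most matches, 5 of them between 117 and 35 bases upstream of the start, of which the ACGTG on each strand overlap in the palindrome CACGTG. Ankrd37 held 4, Hif1a 3, Egln1 and Adm 2 each, and Pdk1 and Egln3 1 each. The match of Pdk1 lay in 1 of its 2 promoters, and the other held none. The 2 matches of Vegfa lay upstream of its second annotated start, where GENCODE M21 places coding exon, and its other promoter held none. The Bnip3, Pdk1 and Egln3 windows overlap no annotated gene in GENCODE M21, and the Adm window lies in a gene on the opposite strand, Gm28863, outside its exons. A match to these letters is a description of the sequence, and binding was not measured.

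The libraries held from 16101033 to 18642504 counted reads, and levels are given as CPM (read counts scaled to a common library size) after TMM normalization. Of 14624 genes tested with edgeR's quasi-likelihood test, none passed a Benjamini-Hochberg adjusted p of 0.05 (0%), while 13.4% passed an unadjusted p of 0.05, and DESeq2 called 1.79% of the 14337 genes to which it gave an adjusted p. Over all tested genes control replicate 3 lay closer to the Ni libraries (mean distance, 1 minus Pearson's r of log2 CPM, 0.0131) than to the other controls (0.0220). Values without it are therefore given for the named genes whose adjusted call they change. Because control replicate 3 was singled out for its likeness to the Ni libraries, leaving it out tends to widen the gap between the groups. The p-values without it describe how far the results hang on 1 library and add no independent evidence of a difference. Stromal markers were present, with all 10 tested and a summed level of 6233 to 8141 CPM in controls and 9343 to 11395 CPM in Ni libraries. Macrophage markers were abundant, at 26799 to 32248 CPM in controls and 27085 to 27942 CPM in Ni libraries. Adipocyte markers summed to 555 to 883 CPM in controls and 472 to 634 CPM in Ni libraries. Endothelial markers summed to 59.5 to 85.0 CPM in controls and 53.1 to 57.3 CPM in Ni libraries, and neutrophil and erythroid markers to at most 3.18 CPM. In bulk RNA, more cells of a type and more RNA per cell cannot be told apart.

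Among the 9 genes open to a test, 6 were higher in the Ni libraries at an unadjusted p under 0.05 and 1 was lower, and 2 passed in neither direction. The background among all tested genes was 7.59% higher and 5.83% lower. The 9 were listed with earlier results of these data known, so these are not the counts of a list chosen blind. None of the 9 passed after adjustment over all genes in edgeR. DESeq2 called 2 of the 9, Bnip3 and Pdk1, beside 1.79% of all genes to which it gave an adjusted p. The higher genes were the hydroxylases Egln1 and Egln3 and the targets Bnip3, Pdk1, Vegfa and Ankrd37, and the lower one was Adm. The α subunits were the remaining pair. The median log2 fold change over the 9 was 0.49, against -0.01 over all tested genes. Without control replicate 3, 6 of the 9 were higher and 1 was lower at an adjusted p under 0.05, where the background was 8.69% higher and 6.49% lower. The unadjusted count moved with the library left out. Without control replicate 1, control replicate 2, Ni replicate 1 or Ni replicate 3, 3 of the 9 passed an unadjusted p of 0.05, beside 868 to 1041 of the 14924 to 14991 genes then tested. Without control replicate 3 it was 8 of the 9, beside 4125 of 15044 genes, and without Ni replicate 2 also 8, beside 2446 of 15004 genes.

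**Figure D1:**
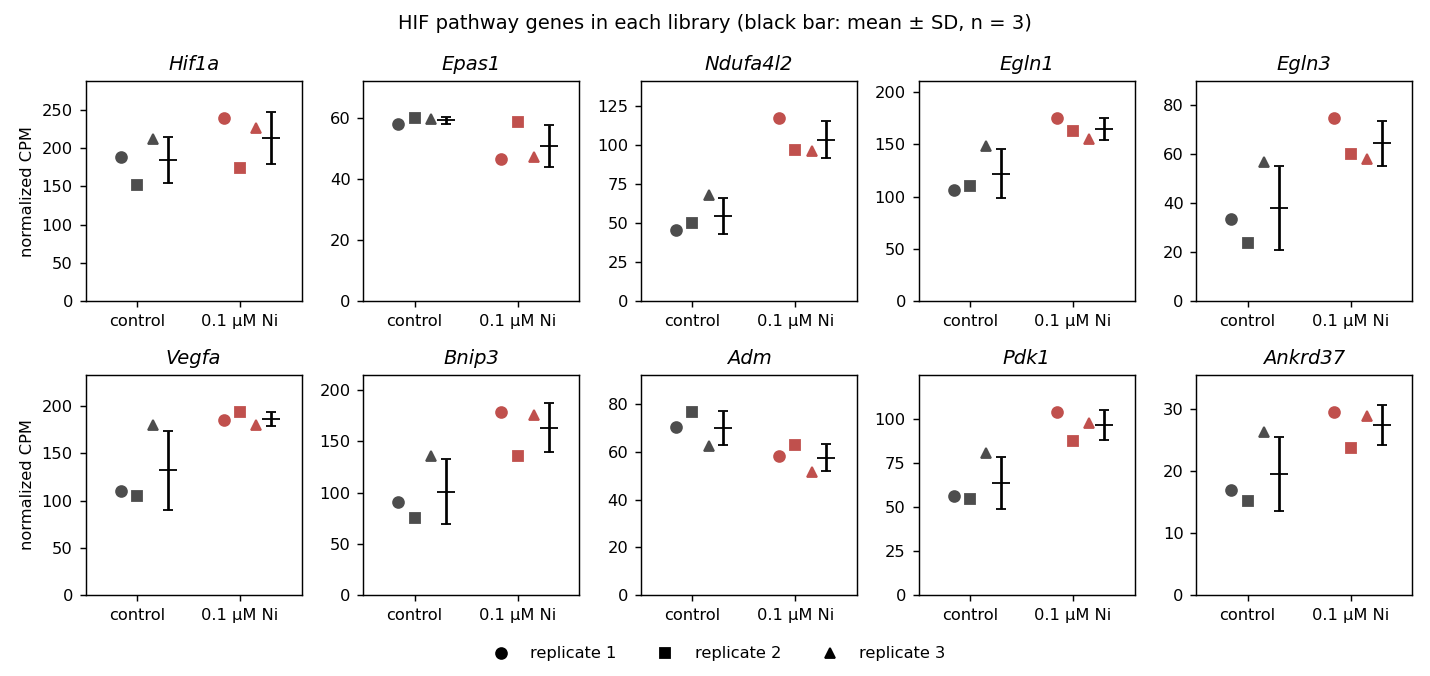
Normalized CPM (vertical axes, from 0, one scale per gene) of the 10 genes in the 3 control and 3 Ni libraries, with one symbol per replicate number and the mean ± SD beside each group. Control replicate 3 (grey triangle) is the highest control for Hif1a, Ndufa4l2, Egln1, Egln3, Vegfa, Bnip3, Pdk1 and Ankrd37, and the lowest for Adm.

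The transcripts of the α subunits differed little. Hif1a (ENSMUSG00000021109, chromosome 12, 73901375 to 73947530, plus strand of GRCm38) was at 188, 152 and 211 CPM in the controls and at 239, 175 and 226 CPM in the Ni libraries, here and throughout in the order of the replicate numbers. The groups overlapped, with Ni replicate 2 below 2 of the controls. The log2 fold change was 0.21 (95% interval -0.12 to 0.55, edgeR adjusted p = 0.567), so a fold from 0.917 to 1.47 lies within the interval. Epas1 (ENSMUSG00000024140, chromosome 17, 86753907 to 86833410, plus strand) was at 57.9, 60.0 and 59.4 CPM in controls and at 46.4, 58.6 and 47.3 CPM in Ni libraries. Its controls were almost identical, and 2 of the 3 Ni libraries lay below them while Ni replicate 2 fell among them. The difference was -0.22 on the log2 scale (95% interval -0.47 to 0.03, edgeR adjusted p = 0.413). Per length, Hif1a was the more abundant subunit in every library, with 2.28 to 3.21 times the FPKM (fragments scaled by gene length and library size) of Epas1 in controls and 2.68 to 4.65 times in Ni libraries.

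Among the other subunits, Hif3a, whose products include inhibitory forms of HIF-α, was at 32.0, 35.2 and 12.8 CPM in controls and 17.3, 17.1 and 14.1 CPM in Ni libraries. Control replicate 3 had the lowest value of the 6. The log2 fold change was -0.72 (standard error 0.34, edgeR adjusted p = 0.403), and without control replicate 3 it was -1.05 (adjusted p = 0.000277). Arnt, the β subunit, averaged 86.8 ± 7.12 CPM in controls and 82.8 ± 2.56 CPM in Ni libraries (SD, n = 3 each), and its log2 fold change of -0.07 had a 95% interval of -0.28 to 0.14. Arnt2, a relative of Arnt, was low, at 0.601 to 2.34 CPM over the 6 libraries.

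The hydroxylase transcripts had estimates of both signs. Egln1 (ENSMUSG00000031987, chromosome 8, 124908587 to 124949324, minus strand) encodes PHD2, the main oxygen sensor of the family and itself a HIF target. It was at 107, 109.8 and 149 CPM in controls and at 175, 163 and 155 CPM in Ni libraries. Every Ni library was above every control, as for 7.97% of all tested genes, although control replicate 3 came close to Ni replicate 3. This was a log2 fold change of 0.43 (standard error 0.13, edgeR adjusted p = 0.295), and 0.61 without control replicate 3 (adjusted p = 0.000858).

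Egln3 (ENSMUSG00000035105, chromosome 12, 54178981 to 54203860, minus strand) encodes PHD3, the family member most strongly induced by HIF in many cells. It was at 33.4, 23.6 and 57.0 CPM in controls and at 75.0, 60.3 and 58.2 CPM in Ni libraries. The groups did not overlap, but the gap between control replicate 3 and Ni replicate 3 was narrow, and Egln3 had the widest spread within groups of the 10 genes (SD 0.47 on log2 CPM). Its log2 fold change was 0.76 (95% interval 0.07 to 1.46, edgeR adjusted p = 0.350). Without control replicate 3 it was 1.18 (adjusted p = 0.000457). Control replicate 3 was 2.00 times the mean of the other controls for Egln3, the largest such ratio among the 10 genes.

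Egln2, which encodes PHD1 and is not a classical HIF target, was at 204, 249 and 118 CPM in controls and 121, 158 and 108 CPM in Ni libraries, with a log2 fold change of -0.57 (standard error 0.27, edgeR adjusted p = 0.400). Control replicate 3 again sat with the Ni libraries, and without it the log2 fold change was -0.81 (adjusted p = 0.00637). The FPKM of Egln2 was 2.46, 2.92 and 1.02 times that of Egln1 in the controls and 0.888, 1.24 and 0.892 times in the Ni libraries. Hif1an, the asparaginyl hydroxylase that limits HIF transactivation, averaged 36.5 ± 2.45 and 37.7 ± 2.37 CPM, and Vhl averaged 43.5 ± 5.05 and 47.0 ± 1.57 CPM (control and Ni, SD, n = 3). Of the 11 listed hydroxylase, degradation and coactivator genes other than Egln1 and Egln3, none passed an unadjusted p of 0.05, the median log2 fold change was -0.10, and 2 of them, Eloc and Rbx1, lay lower in every Ni library than in every control, where the background was 6.71%. Rbx1 was named after its values were seen. Siah2, a ubiquitin ligase that acts on the hydroxylases, had the smallest p of this list, with a log2 fold change of -0.58 (standard error 0.26, edgeR adjusted p = 0.380), and -0.84 without control replicate 3 (adjusted p = 0.00128).

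**Figure D2:**
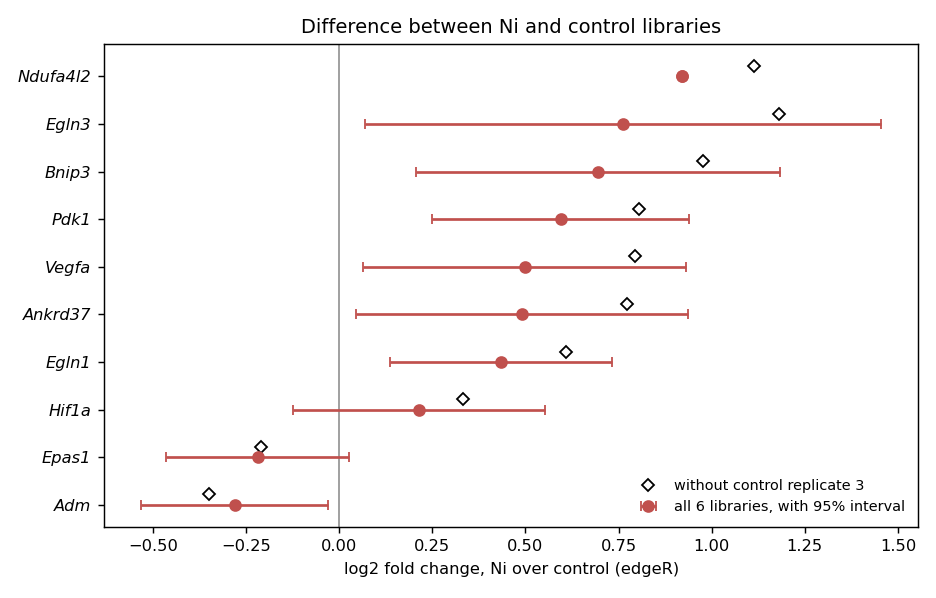
Log2 fold change between Ni and control libraries (horizontal axis) for the 10 genes, with the 95% interval from edgeR for all but Ndufa4l2, which is shown without one. Open diamonds give the value without control replicate 3, farther from 0 for every gene except Epas1 (-0.21 against -0.22).

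The mitochondrial targets stood highest as a group. Bnip3 (ENSMUSG00000078566, chromosome 7, 138890836 to 138909519, minus strand) encodes an outer-membrane protein that marks mitochondria for mitophagy. It was at 91.0, 75.7 and 136 CPM in controls and at 179, 136 and 175 CPM in Ni libraries. Control replicate 3 and Ni replicate 2 were level, so the groups touched, while the other libraries were apart. This gave a log2 fold change of 0.70 (standard error 0.21, edgeR adjusted p = 0.306; DESeq2 adjusted p = 0.0349), and 0.98 without control replicate 3 (edgeR adjusted p = 0.000414). Of its exon bases in GENCODE M21, 22.3% lie under exons of the opposite-strand gene Gm45507, and it is not stated whether reads were counted by strand. Bnip3 held the most cores within the promoter windows, as given above, and Egln3, with a larger log2 fold change of 0.76, held 1. A relation between cores and differences was not tested.

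Pdk1 (ENSMUSG00000006494, chromosome 2, 71873224 to 71903858, plus strand) encodes a pyruvate dehydrogenase kinase that keeps pyruvate out of the mitochondrial citric acid cycle. It was at 56.3, 54.3 and 80.9 CPM in controls and at 104, 87.1 and 97.8 CPM in Ni libraries. The groups did not overlap. Its log2 fold change of 0.59 (standard error 0.15) had the smallest adjusted p of the 9 genes, 0.262 in edgeR, and DESeq2 gave 0.0307. Without control replicate 3 it was 0.81 (edgeR adjusted p = 0.000332).

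Ndufa4l2 (ENSMUSG00000040280, chromosome 10, 127514967 to 127517154, plus strand) encodes a HIF-1-induced mitochondrial protein reported to lower respiratory chain activity under hypoxia, and it is also used as a pericyte marker. It was at 46.0, 50.2 and 68.1 CPM in controls and at 118, 97.0 and 96.3 CPM in Ni libraries, and the lowest Ni library was well above the highest control. The mean was 54.8 ± 11.8 CPM in controls and 104 ± 12.1 CPM in Ni libraries (SD, n = 3 each), 1.89 times as high in the edgeR fit. This rise is what selected the gene, and its size exceeded that of 96.6% of tested genes. Per length it also had the highest mean of the 10 genes in each group. In controls Ndufa4l2 was at 49.6 ± 10.6 FPKM (SD, n = 3), and its range overlapped those of Bnip3 and Adm. Adm exceeded Ndufa4l2 in control replicate 1 (43.2 against 41.7 FPKM) and control replicate 2 (47.2 against 45.5 FPKM). In Ni libraries Ndufa4l2 was at 94.2 ± 11.3 FPKM and stood apart from Bnip3 at 71.8 ± 10.8 FPKM (SD, n = 3).

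The paralog Ndufa4, a subunit of cytochrome c oxidase present in most cells, had the opposite sign. It was at 66.7, 67.4 and 55.8 CPM in controls and at 43.3, 55.0 and 47.0 CPM in Ni libraries, every Ni library below every control, with a log2 fold change of -0.39 (standard error 0.12, edgeR adjusted p = 0.295), or -0.47 without control replicate 3 (adjusted p = 0.0162). The FPKM of Ndufa4l2 was accordingly 0.869, 0.939 and 1.54 times that of Ndufa4 in the controls and 3.43, 2.23 and 2.59 times in the Ni libraries. The cytochrome oxidase subunit pair COX4 showed the same signs, with Cox4i2 at a lower level than Ndufa4l2 and Cox4i1 at a higher level than Ndufa4. Cox4i2, the isoform induced by hypoxia, was at 6.56, 8.12 and 11.6 CPM in controls and 15.9, 13.3 and 13.7 CPM in Ni libraries (log2 fold change 0.71, standard error 0.21, edgeR adjusted p = 0.292; 0.97 without control replicate 3, adjusted p = 0.00287). Cox4i1, the common isoform, averaged 257 ± 40.2 and 217 ± 26.0 CPM (control and Ni, SD, n = 3), with a log2 fold change of -0.24 (adjusted p = 0.451).

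Of the 7 other mitochondrial targets all were higher on average in the Ni libraries, beside 7028 of all 14624 tested genes. At an unadjusted p of 0.05, 5 of the 7 passed as higher, where the background was 7.59%. Their median log2 fold change was 0.63. Fam162a, a mitochondrial protein induced by hypoxia, was at 74.3, 75.7 and 122 CPM in controls and 155, 139.6 and 140.4 CPM in Ni libraries. Its log2 fold change was 0.68 (standard error 0.18, edgeR adjusted p = 0.275; DESeq2 adjusted p = 0.0184), and 0.96 without control replicate 3 (edgeR adjusted p = 8.28e-05). Mxi1, a MAX-binding antagonist of MYC, averaged 46.3 ± 6.59 and 62.6 ± 4.67 CPM (SD, n = 3), with a log2 fold change of 0.43 (standard error 0.12, edgeR adjusted p = 0.275), and 0.56 without control replicate 3 (adjusted p = 0.00339). Bnip3l, which encodes the close relative NIX, had a log2 fold change of 0.18 (95% interval -0.09 to 0.44). The difference from Bnip3 was not tested, and the gene was named after its values were seen. The FPKM of Bnip3 was 1.10, 1.01 and 1.49 times that of Bnip3l in the controls and 1.83, 1.68 and 1.70 times in the Ni libraries.

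The secreted targets went both ways. Vegfa (ENSMUSG00000023951, chromosome 17, 46016993 to 46032369, minus strand), the vascular growth factor through which osteoblasts recruit vessels, was at 111, 105 and 181 CPM in controls and at 185, 194 and 180.4 CPM in Ni libraries. The Ni libraries were tight and control replicate 3 lay inside their range, whereas the other controls were far below. The log2 fold change was 0.50 (standard error 0.19, edgeR adjusted p = 0.343), and 0.79 without control replicate 3 (adjusted p = 0.000179). Adm (ENSMUSG00000030790, chromosome 7, 110627661 to 110629820, plus strand) encodes adrenomedullin, a vasodilator peptide and a classical HIF target. It was at 70.3, 76.9 and 62.6 CPM in controls and at 58.4, 62.7 and 51.5 CPM in Ni libraries. Ni replicate 2 and control replicate 3 were level, and the other Ni libraries were lower than all controls. The difference was -0.28 on the log2 scale (standard error 0.11, edgeR adjusted p = 0.347), and -0.35 without control replicate 3 (adjusted p = 0.0487).

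Of the 12 other secreted and vascular targets tested, 2 passed an unadjusted p of 0.05 as higher and 1 as lower. The backgrounds were 7.59% and 5.83%, and the median log2 fold change of the 12 was 0.10. Epo, which encodes erythropoietin, had no count in any of the 6 libraries and was not tested. Edn1, which encodes endothelin-1, was low, at 2.60 ± 0.512 and 4.03 ± 0.796 CPM (SD, n = 3), with a log2 fold change of 0.64 (adjusted p = 0.353). Cxcl12, the stromal chemokine that retains blood stem cells in the marrow and that also responds to hypoxia, was the lower one, at 2304, 2143 and 1767 CPM in controls and 1508, 1609 and 1355 CPM in Ni libraries. Its log2 fold change was -0.47 (standard error 0.14, edgeR adjusted p = 0.292; DESeq2 adjusted p = 0.0284), and -0.57 without control replicate 3 (edgeR adjusted p = 0.00168).

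Ankrd37 (ENSMUSG00000050914, chromosome 8, 45996902 to 46005707, minus strand), an ankyrin-repeat gene often used as a hypoxia indicator, was the least abundant of the 10 genes in CPM. It was at 16.9, 15.2 and 26.3 CPM in controls and at 29.6, 23.7 and 28.9 CPM in Ni libraries, and control replicate 3 exceeded Ni replicate 2. On the log2 scale the difference was 0.49 (standard error 0.20, edgeR adjusted p = 0.350), and 0.77 without control replicate 3 (adjusted p = 0.00268). Of its exon bases, 26.4% lie under exons of Ufsp2 or Lrp2bp on the opposite strand, which makes the count uncertain where strand was not used.

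The wider set of HIF targets, written as lists by role with earlier results of these data known, leaned the same way. Of 64 tested target genes other than the 10, 52 were higher on average in the Ni libraries and 12 lower, beside 7028 and 7596 of all 14624 tested genes. The median log2 fold change of the 64 was 0.31. At an unadjusted p under 0.05, 28 were higher and 2 were lower, and 22 lay higher in every Ni library than in every control, beside the backgrounds of 7.59%, 5.83% and 7.97%. The same backgrounds hold for the counts of the lists below. None of the 64 passed after adjustment in edgeR, and DESeq2 called 6, beside 1.79% of all genes to which it gave an adjusted p. The lower genes were Cxcl12 and Ndrg1, the latter named after its values were seen. Ndrg1, a stress-response gene induced by hypoxia and also by iron lack, was at 974, 1051 and 366 CPM in controls and 405, 458 and 329 CPM in Ni libraries, so that control replicate 3 lay within the Ni range. Its log2 fold change was -1.01 (standard error 0.37, edgeR adjusted p = 0.344), and -1.35 without that library (adjusted p = 6.55e-05).

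Among 21 glycolytic targets 10 were higher and none lower at an unadjusted p under 0.05, with a median log2 fold change of 0.32. The log2 fold changes of the named genes were 0.45 for Gys1 (glycogen synthase), 0.39 for Ldha (lactate dehydrogenase), 0.36 for Pgk1, 0.34 for the glucose transporter Slc2a1, and 0.32 each for Pgam1 and Hk1, with standard errors from 0.10 to 0.17 and edgeR adjusted p from 0.272 to 0.364. These 6 ran without control replicate 3 from 0.40 (Pgam1, adjusted p = 0.00694) to 0.61 (Ldha, 0.000727), with adjusted p of at most 0.00749 (Slc2a1). Slc16a3, which encodes the lactate exporter MCT4 and was named after its values were seen, had 0.61 (edgeR adjusted p = 0.342), and 0.96 without control replicate 3 (adjusted p = 8.51e-05). Gapdh stood apart at 3.12 (standard error 1.29), because Ni replicate 2 held 3977 counts while the other libraries held 163 to 448, and the gene has many near-identical pseudogenes, so this count is uncertain. Of 8 dioxygenase targets, 7 had a positive log2 fold change and 1 a negative one, with a median of 0.26. At an unadjusted p under 0.05, 4 were higher and none lower. P4ha1 and P4ha2, subunits of the collagen prolyl 4-hydroxylase, had log2 fold changes of 0.71 and 0.81 (standard errors 0.20 and 0.24; DESeq2 adjusted p = 0.0185 for each; edgeR adjusted p = 0.292 and 0.295). Plod2, a collagen lysyl hydroxylase, had 0.73 (standard error 0.26, edgeR adjusted p = 0.334). Without control replicate 3 the values were 0.99 for P4ha1 (adjusted p = 0.000181), 1.17 for P4ha2 (6.55e-05) and 1.07 for Plod2 (0.00338).

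The 16 remaining targets, of pH, iron, stress and other roles, had a median log2 fold change of 0.41, and 7 of them passed an unadjusted p of 0.05 as higher and 1 as lower. Vldlr, a lipoprotein receptor, was at 26.9, 19.5 and 39.1 CPM in controls and 72.1, 42.3 and 75.2 CPM in Ni libraries (log2 fold change 1.15, standard error 0.30; edgeR adjusted p = 0.288; DESeq2 adjusted p = 0.00172; 1.45 without control replicate 3, edgeR adjusted p = 0.0230). Car12, a membrane carbonic anhydrase, was at 3.33, 3.28 and 10.7 CPM in controls and 28.8, 12.5 and 39.1 CPM in Ni libraries (log2 fold change 2.22, standard error 0.62, edgeR adjusted p = 0.306). Its relative Car9, among the most HIF-specific targets known, was at 9.32 to 10.3 CPM in controls and 10.2 to 11.5 CPM in Ni libraries. That log2 fold change of 0.12 had a 95% interval of -0.21 to 0.44. Bhlhe40, a transcriptional repressor, had 0.62 (standard error 0.19, edgeR adjusted p = 0.306), and 0.89 without control replicate 3 (adjusted p = 0.000330).

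The stress genes Hmox1 and Nos2 are also HIF targets. Hmox1, heme oxygenase 1, was at 313 to 326 CPM in controls and 301 to 322 CPM in Ni libraries. Its log2 fold change was -0.02 (95% interval -0.23 to 0.19). Nos2, the inducible nitric oxide synthase, was at 1.91, 1.32 and 6.18 CPM in controls and 5.97, 4.03 and 5.86 CPM in Ni libraries (log2 fold change 0.75, standard error 0.51, edgeR adjusted p = 0.556), with the highest value in control replicate 3. Without that library the log2 fold change was 1.70 (edgeR adjusted p = 0.00265).

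**Figure D3:**
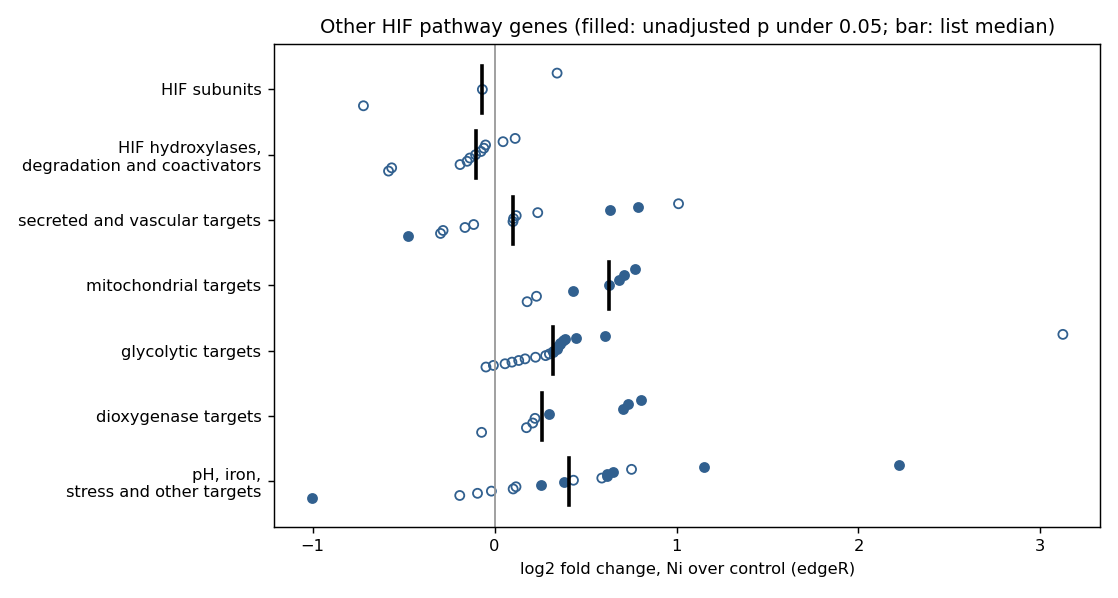
Log2 fold change between Ni and control libraries (horizontal axis, edgeR) for each tested gene of 7 role lists without the 10 genes; filled points passed an unadjusted p of 0.05 and black bars are list medians. The mitochondrial list lies highest, with a median of 0.63, and the regulators lie around 0, with medians of -0.07 and -0.10; the point at 3.12 is Gapdh.

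In the 10 genes and in the other targets alike, control replicate 3 lay between the other controls and the Ni libraries. The 10 genes include Ndufa4l2, which was selected on its rise. Relative to the mean of the controls, the 10 had a median log2 CPM of -0.13, -0.23 and 0.35 in the controls and of 0.59, 0.46 and 0.55 in the Ni libraries. For the 64 other targets it was -0.13, -0.11 and 0.22, then 0.35, 0.31 and 0.30. Osteoblast markers moved with these lists: all 11 were higher at an unadjusted p under 0.05, their summed level was 10363, 10359 and 20485 CPM in controls and 30358, 22824 and 29937 CPM in Ni libraries, and the median log2 fold change was 1.13. Pericyte and smooth muscle markers, the class that Ndufa4l2 can mark, summed to 737, 780 and 1466 CPM in controls and 1392, 1278 and 1326 CPM in Ni libraries, so that control replicate 3 was the highest of all. Their median log2 fold change was 0.41. Of the 11 tested, 10 had a positive log2 fold change and 1 a negative one, and 2 were higher at an unadjusted p under 0.05. Higd1b, a pericyte marker, had fewer than 10 counts in every library. Stromal markers had a median log2 fold change of 0.18, with 2 of 10 higher and 1 lower, and their summed level, given above, was higher in every Ni library than in every control, while the endothelial sum was lower in every one. Macrophage markers had a median log2 fold change of -0.14, with 4 of 13 positive and 9 negative, and 3 were lower at an unadjusted p under 0.05. The part of these cell types in the values of the HIF genes was not tested.

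**Figure D4:**
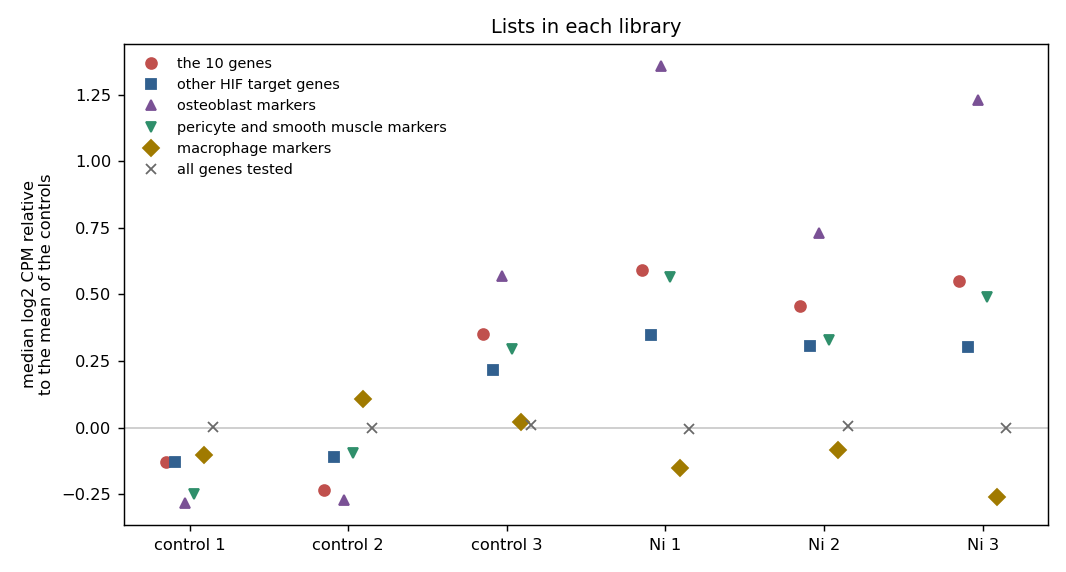
Median log2 CPM of each list relative to the mean of the 3 controls (vertical axis) in each of the 6 libraries. The 10 genes include Ndufa4l2, which was selected on its rise. Control replicate 3 lies between the other controls and the Ni libraries for the 10 genes (0.35), the other HIF targets (0.22), the osteoblast markers (0.57) and the pericyte and smooth muscle markers (0.30), while all tested genes stay between -0.01 and 0.01.

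The genes whose log2 CPM over the 6 libraries was most like that of Ndufa4l2 were Mxra8 (Pearson's r = 0.997), Pcolce (0.996), Cyp26b1 (0.995), Rcn3 (0.994) and Crtap (0.994). Mxra8 encodes a matrix-associated membrane protein, Pcolce an enhancer of procollagen processing, Cyp26b1 an enzyme that degrades retinoic acid, Rcn3 a calcium-binding protein of the secretory pathway and Crtap a partner of the collagen prolyl 3-hydroxylase. These values describe 6 libraries in 2 groups, and 245 tested genes had an r over 0.95 with Ndufa4l2. None of the listed HIF pathway genes is among the 5, and how many are among the 245 is not given here.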

How the data were processed

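RNA of 3 control and 3 Ni cultures was sequenced from fragmented mRNA with random primers (NEBNext Ultra kit, per the labels). The authors deposited raw read counts per gene for 54532 genes and FPKM values, which equal the counts divided by gene length and by 1 factor per library (largest relative deviation 2.19e-08). The submitters' notes name GRCm38; the aligner, counter and strand setting are not given in the sources used here. Of the gene IDs, 54409 are in GENCODE M21. No pair of libraries within a group agreed within sampling noise (chi-square per degree of freedom at least 4.37).

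Genes passing filterByExpr were normalized by TMM and tested two-sided with edgeR 4.0.16 (glmQLFit robust, glmQLFTest; R 4.3.3), with Benjamini-Hochberg adjustment over all 14624. DESeq2 1.42.0 and limma 3.58.1 on log2(FPKM + 1) and log2(FPKM + 0.1) were alternatives. CPM use TMM factors; log2 CPM use a prior count of 2. The edgeR script was tested on simulated data. With 3 against 3, an exact permutation test cannot go below p = 0.1. Intervals and p-values weigh each difference against the spread between these cultures, which is estimated with information shared across genes.

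The 10 genes and all lists were chosen with earlier results of these data known. Named beyond them were up to 3 genes per list with the smallest p, 11 genes fixed by name, the paralogs and the 5 genes most like Ndufa4l2. One gene that this rule names is not reported here.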

Additional observations from a re-analysis of the deposited data

How the results depend on the processing

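The log2 fold changes of the 9 tested genes and of Ndufa4l2, and the median of the other HIF targets (0.27 to 0.44), kept their sign under all 16 alternatives. Normalization by DESeq2's size factors or library totals, limma on either FPKM scale, at least 10 counts in every library and removal of the gene-length trend alone changed no call of the 9 at an adjusted p. At an adjusted p under 0.05, where edgeR called none of all genes (1963 at an unadjusted p) and none of the 9 (7 at an unadjusted p), DESeq2 called 256 genes and 2 of the 9, and edgeR without the filter on low counts 1027 and 5; without that filter 3057 genes passed an unadjusted p. Leaving out 1 library at a time gave 0 to 2283 genes and 0 to 7 of the 9 at an adjusted p, and 868 to 4125 genes and 3 to 8 of the 9 at an unadjusted p. The highest values came without control replicate 3, where Egln1, Egln3, Vegfa, Bnip3, Pdk1, Ankrd37 (adjusted p from 0.000179 to 0.00268) and Adm (0.0487) passed; without any other library none of the 9 did, and leaving out control replicate 1 or 2 or Ni replicate 1 or 3 gave 3 of the 9 at an unadjusted p. The cause was not tested. Ndufa4l2 ranged from 0.81 to 1.11.

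The replicate numbers were not taken as a pairing: the deviations of control and Ni libraries from their group means correlated at 0.01, 0.26 and 0.14 for numbers 1 to 3. Numbers 2 and 3 matched themselves best and number 1 did not. With the replicate block 315 genes and 2 of the 9 (Bnip3 and Pdk1) passed, and with the gene-length trend removed as well 256 and 1 (Bnip3).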
